A study of Homo sapiens with 6 samples.

Results

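The matrix metalloproteinases (MMPs) and their inhibitors were followed in LX-2 cells, an established line of human hepatic stellate cells, as the 10 genes MMP1, MMP2, MMP3, MMP10, MMP14, MMP15, TIMP1, TIMP2, TIMP3 and RECK. They were chosen by gene symbol from the 22701 genes of the deposited expression table, and all 10 are in it. Polyadenylated RNA was sequenced in 6 libraries. In 3 of them the cells had received TGF-β at a stated 5 µg/mL together with 20 µM ligustilide (LIG), a phthalide of Angelica and Ligusticum roots, and in the other 3 the same dose of TGF-β without LIG; these are called the LIG and the TGF-β libraries. All 6 thus carry TGF-β, the cytokine best known for turning stellate cells into matrix-making myofibroblasts, and no library without it was analysed here. The dose unit is as the labels state it and is far above the usual range for this cytokine. The series text writes of transfection, which was read as addition to the cells. How long the cells were treated is not stated. Nor is it stated whether replicates came from separate cultures, so p-values measure the spread between these samples, which may be technical. LX-2 is a single immortalised line, without the other cells of a liver.

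MMPs are zinc-dependent proteases that cut collagens and other matrix proteins. They are made as inactive proenzymes, held shut by a cysteine in the propeptide that binds the catalytic zinc, and are opened by furin-like convertases, plasmin or other MMPs. TIMPs block the active site by forming a tight complex with a single enzyme molecule, and RECK is an inhibitor anchored in the cell membrane. In fibrotic liver, activated stellate cells are a main source of both MMP2 and TIMP1, and the balance of enzyme to inhibitor is held to set how fast scar matrix is removed.

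Levels are FPKM, in which fragment numbers are normalised for gene length and library size, so they may be compared between genes. The libraries held 38401783 to 39260090 fragments. LIG replicate 3 and TGF-β replicate 2 stand apart by their summed FPKM, at 362034 for LIG replicate 3 and 348518 for TGF-β replicate 2, against 324022 to 328949 in the other 4. Of 8 stellate cell markers tested by limma over all genes, 1 fell with LIG and 7 did not pass, beside 0.505% of all genes called lower. COL3A1, a fibrillar collagen chain, fell to 9.96 ± 1.598 FPKM in LIG libraries, against 20.3 ± 2.41 in TGF-β libraries (SD, n = 3 each; log2 change -0.96 ± 0.12, limma adjusted p = 0.0144). It passed in 3 of 6 fits that left out a library (limma adjusted p 0.0178 to 0.0766) and not with low genes kept in (0.114). COL1A1 (503 ± 10.4 FPKM in LIG libraries, 665 ± 41.0 in TGF-β libraries), TAGLN (271 ± 26.1 in LIG libraries, 318 ± 12.1 in TGF-β libraries) and PDGFRB (3.32 ± 0.59 in LIG libraries, 4.99 ± 0.72 in TGF-β libraries) were also lower in every LIG library (limma adjusted p = 0.118, 0.509 and 0.257). NGFR was higher in every LIG library, at 1.92 ± 0.37 FPKM in LIG libraries and 1.39 ± 0.20 in TGF-β libraries (limma adjusted p = 0.479). The groups overlapped for VIM (1747 to 2091 FPKM in LIG libraries, 1737 to 1971 in TGF-β libraries), ACTA2 (2.75 to 3.23 in LIG libraries, 2.11 to 3.43 in TGF-β libraries) and COL1A2 (3.24 to 5.08 in LIG libraries, 0.675 to 6.73 in TGF-β libraries). DES and RELN stayed under 0.1 FPKM in every library. Markers of macrophages, leukocytes and endothelial cells were low. Summed over 6 macrophage and leukocyte genes they were at 1.54 to 1.93 FPKM in LIG libraries and 1.65 to 1.76 in TGF-β libraries, and over 5 endothelial genes they were at 0.171 to 0.239 FPKM in LIG libraries and 0.216 to 0.338 in TGF-β libraries. Of 6 hepatocyte genes 3 are in the table. APOA1 and CYP3A4 were under 0.1 FPKM, while SERPINA1 was at 3.20 to 4.86 FPKM. The 4 cholangiocyte genes in the table summed to 11.2 to 11.9 FPKM in LIG libraries and 13.6 to 13.9 in TGF-β libraries. Most of this was SOX9, which was lower in every LIG library. EPCAM stayed at 0.0659 FPKM or less and KRT19 at 0.112 FPKM or less. SOX9 was at 10.1 ± 0.38 FPKM in LIG libraries and 11.8 ± 0.13 in TGF-β libraries and KRT7 at 1.46 ± 0.51 in LIG libraries and 1.91 ± 0.18 in TGF-β libraries; neither they nor SERPINA1 passed (limma adjusted p = 0.328, 0.699 and 0.991). The part of these markers, the stellate ones included, in the results was not tested.

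With LIG, the inhibitor TIMP3 fell to 0.657 times its level in TGF-β libraries, and it was the single member to pass the test over all genes. In a bulk sample, fewer cells with a transcript and less of it per cell cannot be told apart. MMP14, the main membrane-type MMP, and TIMP1 lay higher in all 3 LIG libraries than in any TGF-β library, MMP1 had the largest positive log2 change of the 8 tested members, and TIMP2 lay lower, but these did not pass. Of the 10 members, 8 had a mean of at least 1 FPKM and were tested with limma on log2(FPKM + 1) among 10695 genes (Benjamini-Hochberg adjustment, two-sided, threshold 0.05). TIMP3 fell, none rose and the other 7 did not pass, beside 0.692% of all genes called in either direction, 0.187% called higher and 0.505% called lower. Before adjustment 4 of the 8 (MMP1, MMP14, TIMP1 and TIMP3) had a limma p under 0.05, against 8.41% of all genes. The median log2 change of the 8 was -0.05, against 0.03 over all genes tested, with 3 changes above 0 and 5 below. The groups did not overlap in 4 of the 8, 2 higher (MMP14 and TIMP1) and 2 lower (TIMP2 and TIMP3) with LIG, against 15.8% of all genes tested, 9.07% higher and 6.73% lower. Without LIG replicate 3 and TGF-β replicate 2, left out because they stand apart, 4 of the 8 members passed (MMP1, MMP14 and TIMP1 higher, TIMP3 lower), as did 4.65% of all genes.

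**Figure D1:**
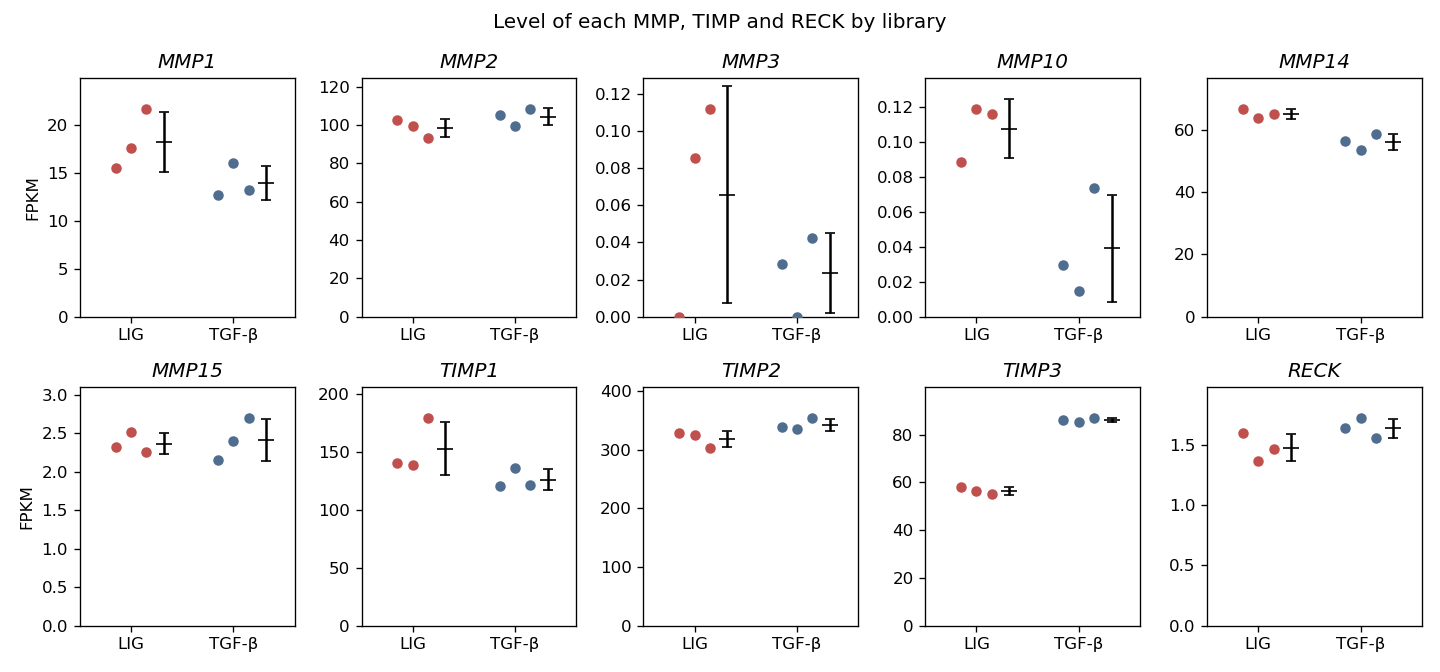
FPKM (y axis, starting at 0) of each of the 10 genes in the 3 LIG libraries (red, left) and the 3 TGF-β libraries (blue, right); points are libraries and the bar is the mean with its SD. TIMP3 sits between 55.0 and 58.3 FPKM in LIG libraries, below every TGF-β library (85.3 to 86.8).

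The order of the levels differed between the groups at a single place. In both, TIMP2, TIMP1 and MMP2 led in that order, and MMP1, MMP15, RECK, MMP10 and MMP3 came last in that order. MMP14 (63.6 to 66.5 FPKM) stood above TIMP3 (55.0 to 58.3 FPKM) in the LIG libraries, whereas TIMP3 (85.3 to 86.8 FPKM) stood above MMP14 (53.5 to 58.6 FPKM) in the TGF-β libraries. Neighbours in the order did not overlap over the 3 libraries of a group, except MMP10 and MMP3 in both groups.

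The inhibitors are given first. TIMP3, which unlike the other TIMPs binds to the extracellular matrix and also blocks several ADAM and ADAMTS proteases, lies on chromosome 22 (32801701 to 32863043, plus strand, GRCh38), inside an intron of SYN3 on the opposite strand. TIMP3 had 58.3, 56.4 and 55.0 FPKM in LIG replicates 1 to 3, against 86.3, 85.3 and 86.8 FPKM in TGF-β replicates 1 to 3. Every LIG library was below every TGF-β library, and the libraries of a group were close together: 2.38% of tested genes had a smaller spread within groups. The mean was 56.6 ± 1.65 FPKM in LIG libraries and 86.1 ± 0.79 FPKM in TGF-β libraries (SD, n = 3 each), a log2 change of -0.60 ± 0.06 (SE; 95% interval -0.73 to -0.46; limma adjusted p = 0.00552). Of all genes tested, 0.411% had a larger change in either direction. The values rest on 9927 to 10356 fragments in LIG libraries and 15289 to 15448 in TGF-β libraries, and SYN3 itself was at 0.00478 FPKM or less. The stellate markers COL3A1, COL1A1, TAGLN and PDGFRB were lower in the same libraries as TIMP3. The change was between -0.63 and -0.58 in all 17 alternative fits, and of the fits that left out 1 library the call was lost without TGF-β replicate 3 (log2 change -0.59, limma adjusted p = 0.0665; from 0.00400 to 0.0665 on leaving out each library).

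TIMP1, the inhibitor most tied to liver fibrosis and a weak blocker of membrane-type MMPs, lies on chromosome X (47582313 to 47586789, plus strand), within an intron of SYN1 on the opposite strand. TIMP1 had 140, 138 and 179 FPKM in LIG libraries, against 121, 136 and 121 FPKM in TGF-β libraries. The groups did not overlap but came close, at 138 FPKM for the lowest LIG library and 136 for the highest TGF-β library, and the highest value of each group was in the library that stands apart. The mean was 152 ± 22.6 FPKM in LIG libraries and 126 ± 8.94 FPKM in TGF-β libraries, a log2 change of 0.27 ± 0.11 (95% interval 0.01 to 0.52; limma adjusted p = 0.563). Without both of those libraries the change was 0.21 and passed (limma adjusted p = 0.00886). TIMP1 passed in no fit that left out a single library (limma adjusted p 0.469 to 0.999). SYN1 was at 0.105 FPKM or less.

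TIMP2, which inhibits MMP2 but also, at the cell surface, bridges pro-MMP2 to MMP14 for its activation, was the most abundant member. TIMP2 (chromosome 17, 78852977 to 78925387, minus strand) had 329, 325 and 303 FPKM in LIG libraries, against 338, 335 and 354 FPKM in TGF-β libraries. All LIG values were lower, but the highest of them and the lowest TGF-β value differed by less than the range within either group. The log2 change of -0.10 ± 0.07 did not pass (limma adjusted p = 0.820), with a 95% interval of 0.827 to 1.05 as a fold on the log2(FPKM + 1) scale. Its exons overlap those of CEP295NL on the same strand, which was at 0.0842 to 0.46 FPKM. RECK (chromosome 9, 36036433 to 36124451, plus strand), which restrains MMP2, MMP9 and MMP14, had 1.59, 1.36 and 1.47 FPKM in LIG libraries, against 1.63, 1.72 and 1.56 FPKM in TGF-β libraries. These groups overlapped, and the log2 change was -0.09 ± 0.07 (limma adjusted p = 0.824; fold interval 0.842 to 1.05).

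**Figure D2:**
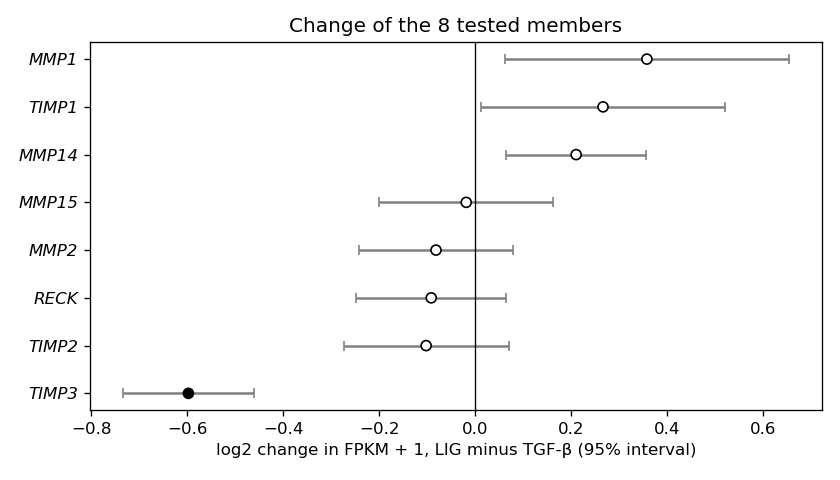
Log2 change in FPKM + 1, LIG minus TGF-β (x axis), of the 8 tested members with the 95% interval from limma; the filled point passed the adjusted threshold and open points did not. TIMP3 stands alone at -0.60, and the intervals of MMP1, TIMP1 and MMP14 lie above 0 before adjustment.

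The TIMP levels made up a different mix in the 2 groups. TIMP3 was 10.7 ± 0.41% of the summed TIMP FPKM in LIG libraries and 15.5 ± 0.25% in TGF-β libraries. TIMP1 was 28.8 ± 3.85% in LIG libraries and 22.7 ± 1.56% in TGF-β libraries. TIMP2 made up most of the sum in both, at 60.4 ± 3.44% in LIG libraries and 61.8 ± 1.43% in TGF-β libraries. Set against the other inhibitors, TIMP3 to TIMP2 was 0.177, 0.174 and 0.182 in LIG libraries, against 0.255, 0.255 and 0.246 in TGF-β libraries. TIMP3 to TIMP1 was 0.415, 0.408 and 0.308 in LIG libraries, against 0.716, 0.626 and 0.718 in TGF-β libraries. The groups did not overlap in either ratio. The ratio to TIMP3 was higher in every LIG library for 94.2% of all other tested genes. The lower ratios of TIMP3 to TIMP2 and TIMP1 are thus no finding separate from its fall. These comparisons were chosen after the values were seen and carry no p.

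**Figure D3:**
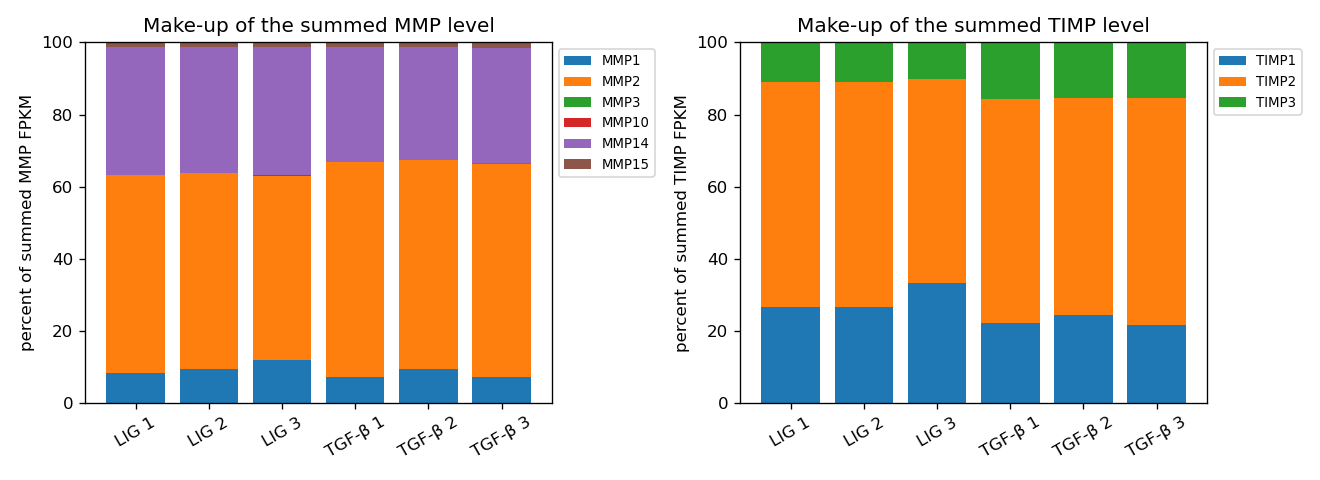
Share (%) of the summed MMP FPKM (left) and of the summed TIMP FPKM (right) taken by each gene, as stacked bars for LIG replicates 1 to 3 and then TGF-β replicates 1 to 3. TIMP3 takes 10.7% on average in LIG libraries and 15.5% in TGF-β libraries, and MMP14 takes 35.3% in LIG libraries and 31.7% in TGF-β libraries.

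Among the membrane-type enzymes, MMP14 (MT1-MMP), a collagenase of the cell surface and the activator of pro-MMP2, lies on chromosome 14 (22836557 to 22849027, plus strand). MMP14 had 66.5, 63.6 and 65.1 FPKM in LIG libraries, against 56.4, 53.5 and 58.6 FPKM in TGF-β libraries. All LIG libraries were higher. The gap between the groups was wider than the range among LIG libraries but not wider than that among TGF-β libraries. The mean was 65.1 ± 1.45 FPKM in LIG libraries and 56.1 ± 2.56 FPKM in TGF-β libraries, a log2 change of 0.21 ± 0.06 (95% interval 0.07 to 0.36) that did not pass (limma adjusted p = 0.328). Leaving out both LIG replicate 3 and TGF-β replicate 2 gave a log2 change of 0.18 that passed (limma adjusted p = 0.0387). MMP14 passed in no fit that left out a single library (limma adjusted p 0.238 to 0.821). MMP15 (MT2-MMP; chromosome 16, 58025566 to 58046901, plus strand) had 2.33, 2.51 and 2.26 FPKM in LIG libraries, against 2.15, 2.40 and 2.69 FPKM in TGF-β libraries. Its LIG values lay within the range of the TGF-β values, with a log2 change of -0.02 ± 0.08 (limma adjusted p = 0.986; fold interval 0.87 to 1.12).

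MMP2 (gelatinase A; chromosome 16, 55389700 to 55506691, plus strand), which cleaves denatured collagen and type IV collagen, was the most abundant MMP. MMP2 had 103, 99.3 and 93.3 FPKM in LIG libraries, against 105, 99.4 and 108 FPKM in TGF-β libraries. The groups overlapped, and the log2 change was -0.08 ± 0.07 (limma adjusted p = 0.862; fold interval 0.846 to 1.06). MMP2 took a smaller part of the summed MMP FPKM with LIG, 53.4 ± 2.01% in LIG libraries and 58.9 ± 0.81% in TGF-β libraries, and MMP14 a larger part, 35.3 ± 0.50% in LIG libraries and 31.7 ± 0.47% in TGF-β libraries; neither share overlapped between the groups. MMP14 to MMP2 was 0.647, 0.641 and 0.697 in LIG libraries, against 0.536, 0.538 and 0.541 in TGF-β libraries. These shares and this ratio were not among the planned comparisons and carry no p. The share of all genes whose ratio to MMP2 did not overlap was not taken.

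The remaining enzymes lie near each other on chromosome 11, all on the minus strand. MMP1 (102789920 to 102798160), the interstitial collagenase that cuts native type I and type III collagen, had 15.5, 17.6 and 21.6 FPKM in LIG libraries, against 12.7, 16.0 and 13.2 FPKM in TGF-β libraries. The groups overlapped, since TGF-β replicate 2 was above LIG replicate 1, and the highest value of each group was again in the library that stands apart. The mean was 18.2 ± 3.13 FPKM in LIG libraries and 13.9 ± 1.79 FPKM in TGF-β libraries, a log2 change of 0.36 ± 0.13 (95% interval 0.06 to 0.65; limma adjusted p = 0.457). Of all genes tested, 90.8% had a smaller spread within groups than MMP1. Without both libraries that stand apart its change of 0.33 passed (limma adjusted p = 0.0219). It passed in no fit that left out a single library (limma adjusted p 0.385 to 0.999). Exons of MMP1, and those of MMP3, overlap exons of the pseudogene WTAPP1 on the opposite strand. Exons of TIMP2 also overlap those of AC022966.1 on the opposite strand, and exons of MMP2 those of AC007336.3 on the same strand. Whether counting used strand is not stated in the sources used here.

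The stromelysins MMP10 (102770503 to 102780628) and MMP3 (102835801 to 102843803), which cut proteoglycans and activate other MMPs, were too low for the test. MMP10 had 6, 8 and 8 fragments in LIG libraries, against 2, 1 and 5 fragments in TGF-β libraries, or 0.108 ± 0.0167 FPKM in LIG libraries and 0.0392 ± 0.0306 FPKM in TGF-β libraries. The groups did not overlap, and the summed counts of 22 in LIG libraries and 8 in TGF-β libraries gave a ratio of 2.75 with an exact 95% interval of 1.18 to 7.14 that covers counting error only. MMP3 had 0, 6 and 8 fragments in LIG libraries, against 2, 0 and 3 fragments in TGF-β libraries, and its ratio of 2.80 had an interval of 0.953 to 9.93. In a fit without the filter neither MMP10 nor MMP3 passed (limma adjusted p = 0.439 and 0.913). The pair are close relatives in sequence, so the split of so few reads between them is uncertain.

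Promoter windows for 6 of the 10 genes are in the RefSeq table used here (those of MMP1, MMP2, MMP3 and TIMP2 are not). For these 6, 250 bases before and 50 after the RefSeq start (GRCh38.p14) were searched on both strands for the AP-1 element TGANTCA, the GC box GGGCGG, the TATA box TATAAA and the core of the antioxidant response element, TGACNNNGC. The windows of the members whose groups did not overlap are given 5′ to 3′ on the gene's strand, with matches in capitals, so that the gene that fell can be compared with those that lay higher. They are chr22:32801455-32801754 (plus) for TIMP3, chr14:22836335-22836634 (plus) for MMP14, chrX:47582186-47582485 (plus) for TIMP1 and chr11:102780579-102780878 (minus) for MMP10.
TIMP3: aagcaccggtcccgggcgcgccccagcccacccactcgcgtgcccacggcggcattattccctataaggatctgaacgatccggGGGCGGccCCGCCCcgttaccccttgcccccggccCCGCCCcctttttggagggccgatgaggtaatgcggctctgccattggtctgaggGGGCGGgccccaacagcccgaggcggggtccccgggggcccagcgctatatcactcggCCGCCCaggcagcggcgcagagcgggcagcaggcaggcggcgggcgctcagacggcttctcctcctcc
MMP14: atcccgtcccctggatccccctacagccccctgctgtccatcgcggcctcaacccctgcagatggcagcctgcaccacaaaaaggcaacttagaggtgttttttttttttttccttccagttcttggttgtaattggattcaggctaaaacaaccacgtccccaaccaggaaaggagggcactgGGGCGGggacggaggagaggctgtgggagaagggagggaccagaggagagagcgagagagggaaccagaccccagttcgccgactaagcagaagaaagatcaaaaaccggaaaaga
TIMP1: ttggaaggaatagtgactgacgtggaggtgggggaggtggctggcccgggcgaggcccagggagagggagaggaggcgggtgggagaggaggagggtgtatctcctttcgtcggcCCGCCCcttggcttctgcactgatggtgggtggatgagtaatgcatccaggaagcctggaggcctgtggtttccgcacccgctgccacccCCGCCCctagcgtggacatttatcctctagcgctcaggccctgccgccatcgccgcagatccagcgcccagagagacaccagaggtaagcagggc
MMP10: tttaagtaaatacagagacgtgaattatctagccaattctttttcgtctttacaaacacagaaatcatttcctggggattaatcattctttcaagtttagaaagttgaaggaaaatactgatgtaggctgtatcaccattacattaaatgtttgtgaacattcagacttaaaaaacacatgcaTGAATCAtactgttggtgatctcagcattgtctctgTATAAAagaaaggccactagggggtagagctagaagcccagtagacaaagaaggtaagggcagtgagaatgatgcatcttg

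The TIMP3 window holds 5 GC boxes, the first 166 bases and the last 18 bases before the start. GC boxes were also found in MMP14 (1), TIMP1 (2), MMP15 (5) and RECK (3), that is in 5 of the 6 windows, and in 45.0% of 35116 windows of the same length. MMP10 has an AP-1 element whose first base lies 67 bases before the start, with the letters TGAATCA, and a TATA box 31 bases before it. An AP-1 element was in 7.7% and a TATA box in 11.5% of all windows. The antioxidant core was in none of the 6 and in 13.3% of all windows. No 2 matches overlapped, and a match describes letters in the window, not binding.

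Summed MMPs stood slightly higher against summed TIMPs with LIG. Single pairs that did not overlap were all higher too, and the few with lower means, all against TIMP1, overlapped. Summed over the 6 MMPs, levels were 187, 183 and 182 FPKM in LIG libraries, against 176, 171 and 183 FPKM in TGF-β libraries, and the groups overlapped. Summed over the 3 TIMPs they were 528, 520 and 537 FPKM in LIG libraries, against 545, 556 and 561 FPKM in TGF-β libraries, all lower with LIG. The ratio of the sums was 0.355, 0.353 and 0.340 in LIG libraries, against 0.323, 0.308 and 0.325 in TGF-β libraries. Every LIG library was higher, with a mean of 0.349 ± 0.00791 in LIG libraries and 0.319 ± 0.00958 in TGF-β libraries and a ratio between them of 1.09. Without MMP2, the most abundant enzyme, this was 1.24, and without TIMP2, the most abundant inhibitor, it was 1.06. Both figures compare group means only and do not say whether the groups still stood apart. The TIMP sum includes TIMP3, the member that passed, so the higher ratio of sums is no separate finding. The ratio without TIMP3 was not taken, nor was the share of all genes for a ratio to the TIMP sum.

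**Figure D4:**
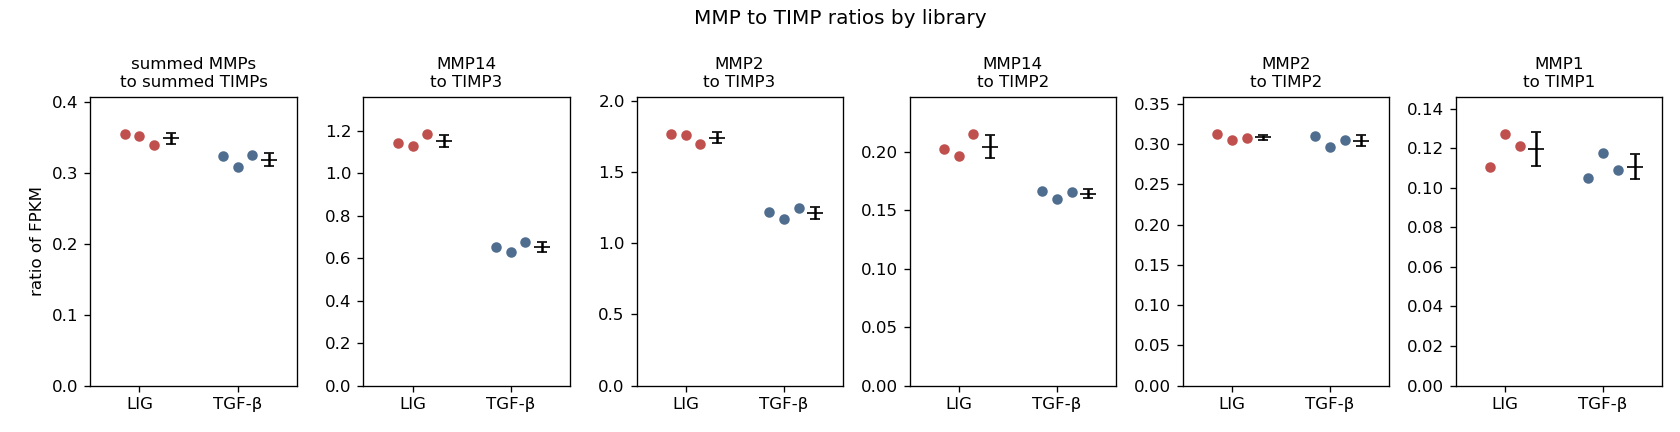
Ratio of FPKM (y axis, starting at 0) between MMPs and TIMPs in the 3 LIG libraries (red, left) and the 3 TGF-β libraries (blue, right), with the mean and SD as a bar. The ratios to TIMP3 separate widely (MMP14 to TIMP3 is 1.13 to 1.18 in LIG libraries and 0.627 to 0.674 in TGF-β libraries), while MMP2 to TIMP2 and MMP1 to TIMP1 overlap.

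Each of the 6 MMPs was also set against each of the 3 TIMPs. The groups did not overlap in 8 of the 18 pairs, all higher with LIG. With 3 libraries a group, the smallest two-sided p of an exact permutation test is 0.1, which these 8 reached; adjusted over the 18 pairs this exact p was 0.225, so no pair passed. Of the 6 pairs with TIMP3, 5 were higher in every LIG library, but so was the ratio to TIMP3 of 94.2% of all other tested genes, TIMP3 being the shared denominator that fell. With TIMP1 as the denominator 0.393% of them were higher in every LIG library. Of its 6 pairs that of MMP10 was too, but MMP10 is too low to be among the tested genes. Its nearest values were 0.000629 in LIG replicate 1 and 0.000608 in TGF-β replicate 3, resting on 6 and 5 MMP10 fragments. The other 5 pairs with TIMP1 overlapped, and 3 of these had lower means with LIG. MMP2 to TIMP1 was 0.657 ± 0.117 in LIG libraries and 0.832 ± 0.0891 in TGF-β libraries, MMP15 to TIMP1 was 0.0158 ± 0.00284 in LIG libraries and 0.0192 ± 0.00262 in TGF-β libraries, and MMP14 to TIMP1 was 0.433 ± 0.0596 in LIG libraries and 0.448 ± 0.0489 in TGF-β libraries. MMP14 to TIMP3 was 1.14, 1.13 and 1.18 in LIG libraries, against 0.653, 0.627 and 0.674 in TGF-β libraries, a ratio between the means of 1.77. MMP2 to TIMP3 was 1.76, 1.76 and 1.70 in LIG libraries, against 1.22, 1.17 and 1.25 in TGF-β libraries. In each of these the LIG libraries lay above the TGF-β libraries by more than the whole range within either group.

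The pairs best known for acting together differed less. MMP14 to TIMP2 was 0.202, 0.196 and 0.215 in LIG libraries, against 0.167, 0.160 and 0.166 in TGF-β libraries, all higher with LIG, as was the ratio to TIMP2 in 22.4% of all other tested genes. MMP2 to TIMP2 was 0.312, 0.306 and 0.308 in LIG libraries, against 0.311, 0.297 and 0.306 in TGF-β libraries, and overlapped. MMP1 to TIMP1 was 0.110, 0.127 and 0.121 in LIG libraries, against 0.105, 0.117 and 0.109 in TGF-β libraries, and overlapped too. MMP10 supplied 3 of the 8 pairs that did not overlap, all resting on 8 fragments or fewer per library. MMP14 to RECK was 41.7, 46.6 and 44.4 in LIG libraries, against 34.5, 31.2 and 37.6 in TGF-β libraries. MMP2 to RECK overlapped (66.97 ± 5.05 in LIG libraries and 63.9 ± 5.75 in TGF-β libraries). The ratios to RECK were not among the planned comparisons and carry no p. The share of all genes whose ratio to RECK did not overlap was not taken.

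The genes whose levels followed TIMP3 most closely over the 6 libraries, by the root mean square difference of gene-centred log2(FPKM + 1), were F3, SCG2 and AK4 (0.04, 0.04 and 0.05). F3, tissue factor, averaged 28.96 ± 1.51 FPKM in LIG libraries and 45.3 ± 0.95 in TGF-β libraries. SCG2, the secretory granule protein secretogranin II, averaged 8.12 ± 0.21 FPKM in LIG libraries and 12.4 ± 0.22 in TGF-β libraries (limma adjusted p = 0.00652). AK4, a mitochondrial adenylate kinase, averaged 1.05 ± 0.16 FPKM in LIG libraries and 2.17 ± 0.07 in TGF-β libraries. All 3 are chosen for this likeness, so their falls with LIG are no separate finding.

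Other genes of the MMP system were taken from lists of enzymes, activators, partners and regulators. These lists were chosen with earlier results of these data known, so their counts are no separate support. Over all genes tested 0.692% were called. Of 18 further genes (other MMPs and TIMP4), 13 are in the table, 4 were tested and none passed; MMP7 was at 1.34 ± 0.33 FPKM in LIG libraries and 1.78 ± 0.32 in TGF-β libraries, and MMP19 was at 6.42 ± 0.56 FPKM in LIG libraries and 7.18 ± 0.40 in TGF-β libraries (limma adjusted p = 0.647 and 0.737). MMP9, gelatinase B, was at 8.33 to 10.1 FPKM in LIG libraries and 9.89 to 10.3 in TGF-β libraries. Among genes that activate MMPs or control plasmin, 1 of 9 tested rose, 1 fell and 7 did not pass. Beside this, 0.187% of all genes were called higher and 0.505% lower. SERPINB2, an inhibitor of urokinase and tissue plasminogen activator, rose to 7.80 ± 0.23 FPKM in LIG libraries, against 5.37 ± 0.15 in TGF-β libraries (log2 change 0.47 ± 0.06, limma adjusted p = 0.0177). PLAT, tissue plasminogen activator, fell to 38.5 ± 0.50 FPKM in LIG libraries, against 48.7 ± 0.28 in TGF-β libraries (limma adjusted p = 0.0493). FURIN, the convertase that activates MMP14, was at 51.9, 55.0 and 50.9 FPKM in LIG libraries, against 49.7, 45.5 and 50.0 FPKM in TGF-β libraries (limma adjusted p = 0.744).

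Among partners and uptake receptors, 2 of 15 tested fell and 13 did not pass, beside 0.505% of all genes called lower. CAV1, the coat protein of caveolae, through which MMP14 is taken into the cell, fell to 67.1 ± 0.24 FPKM in LIG libraries, against 89.9 ± 4.13 in TGF-β libraries (log2 change -0.42 ± 0.06, limma adjusted p = 0.0313). THBS2, a matricellular protein that promotes uptake of MMP2 through LRP1, fell to 26.6 ± 2.37 FPKM in LIG libraries, against 37.0 ± 0.54 in TGF-β libraries (limma adjusted p = 0.0435). None of the 5 tested ADAM and ADAMTS genes passed; ADAMTS1 was at 19.7 ± 0.29 FPKM in LIG libraries and 22.0 ± 0.20 in TGF-β libraries, and ADAM10 at 23.6 ± 2.33 FPKM in LIG libraries and 25.7 ± 0.91 in TGF-β libraries (limma adjusted p = 0.470 and 0.785).

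Of 23 tested transcription factors known to act on MMP genes, 1 rose and 22 did not pass, beside 0.187% of all genes called higher. FOSL1, the AP-1 subunit FRA-1, had 76.3, 81.3 and 84.7 FPKM in LIG libraries, against 54.0, 47.9 and 53.9 FPKM in TGF-β libraries. All LIG libraries were higher, with a log2 change of 0.63 ± 0.08 (limma adjusted p = 0.0127). JUN, its usual partner, was at 74.4, 75.6 and 82.0 FPKM in LIG libraries, against 81.0, 80.5 and 82.7 FPKM in TGF-β libraries (limma adjusted p = 0.871). On leaving out each library, FOSL1 passed in 3 of 6 fits and SERPINB2, PLAT, CAV1 and THBS2 in 1 each, with limma adjusted p up to 0.0766, 0.142, 0.335, 0.214 and 0.262 in the order named. In the fit with no filter on low values none of the 5 passed (limma adjusted p 0.0707, 0.0643, 0.0624, 0.0775 and 0.136 in that order).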

How the data were processed

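Polyadenylated RNA of LX-2 cells was measured in 3 LIG and 3 TGF-β libraries. The authors deposited FPKM values with a column for each library, per the file headers. Named in the submitters' processing notes, without roles, are DESeq2, fastp, HISAT2 2.1.0 and the build GRCh38.p13; the counting tool, annotation and strand use are not given in the sources used here.

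Fragments were recovered as whole multiples of the FPKM step (all 22701 genes, within 0.01 of a whole number) and used for depth, for MMP3 and MMP10 and for an alternative fit. The gene length was searched for so as to meet this limit, so meeting it is no check for genes seen in few libraries. The 10695 genes averaging 1 FPKM or more entered limma 3.58.1 as log2(FPKM + 1) (mean-variance trend, group only, two-sided, Benjamini-Hochberg at 0.05; 4 residual and 4.1 prior degrees of freedom) and R 4.3.3. The steps were tested on simulated data. Fold changes on this scale understate changes of low genes. Ratios are linear FPKM ratios per library, with exact permutation tests (scipy 1.17.1). Intervals on counts are exact (Clopper-Pearson, 95%). Gene positions and overlaps came from GENCODE release 29 (GRCh38), promoters from RefSeq.

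The members and lists were chosen with earlier results of these data known. Named were all members, list genes that passed (otherwise the 2 with the smallest adjusted p per list) and the 3 genes most like each member that passed; MMP9, FURIN, JUN, overlapping genes and markers were added after their values were seen. Alternatives were a pseudocount of 0.1 or 0.5, a minimum of 5 FPKM or none, centring on the median, quantile normalization, rescaling to TPM, limma with no trend, voom on recovered fragments, a replicate block, and fits without each library or without both that stand apart.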

Additional observations from a re-analysis of the deposited data

How the results depend on the processing

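TIMP3 kept its direction in all 17 alternative fits. It was the single member called in all but 3 of them: none passed under the replicate block or without TGF-β replicate 3, and 4 passed without both LIG replicate 3 and TGF-β replicate 2 (MMP1, MMP14 and TIMP1 besides TIMP3; 4.65% of all genes passed there). That fit leaves out libraries chosen for standing apart, so its calls are no separate support. On leaving out 1 library the members called were 0 to 1, the genes called 11 to 93 (74 in all libraries), the ratio of summed MMPs to summed TIMPs 1.08 to 1.11 between the groups, and the pairs that did not overlap 8 to 14. All genes called were 14 with no filter, 22 under the replicate block and 497 without both libraries. The share of calls that were higher was 27% and moved to 40.9% with the block. It was 35.7% with no filter, 42.1% without both libraries and 25.8% to 54.5% on leaving out each library, with 54.5% (6 of 11) without TGF-β replicate 3 and 48.3% without TGF-β replicate 2. The replicate numbers did not pair the libraries: deviations of same-numbered libraries correlated at 0.469, -0.574 and -0.337. With the replicate block TIMP3 had a limma adjusted p of 0.0651, and the 3 same-numbered differences had a single sign in 12 of 18 pairs. MMP15, near 0 throughout, changed sign without LIG replicate 3 (0.00481), without TGF-β replicate 3 (0.0396) and without both (0.00312), and was lowest without TGF-β replicate 1 (-0.0745). The ratio of sums was 1.24 without MMP2 and 1.06 without TIMP2. Of 134 member values under alternatives, 126 kept direction and side of the threshold. The causes were not tested. Depth limits MMP3 and MMP10, with 8 fragments or fewer per library.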
